A study of Homo sapiens with 12 samples.

Results

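The proteasome subunit genes described here are the protein-coding genes whose symbol is PSMA, PSMB, PSMC, PSMD or PSME followed by a number, without the interferon-inducible subunits PSMB8, PSMB9 and PSMB10 and without genes on chromosomes 8 and 13. The rule gave 40 genes out of 58735 in the table; no symbol of this pattern lay on either left-out chromosome. The cells were SEM, an established line of B cell precursor acute lymphoblastic leukaemia, and RNA was sequenced in 12 libraries. There were 3 libraries in each of 4 groups: IKZF1 knockout (KO) cells given 1 µM cytarabine (AraC) for 16 hours, untreated KO cells, wild-type (WT) cells given the same AraC treatment, and untreated WT cells. Cells given AraC are called treated. AraC is a nucleoside analogue that is built into DNA and blocks its synthesis, and the IKZF1 product, Ikaros, is a DNA-binding regulator of lymphoid development. The labels name 1 KO genotype, so clonal differences and loss of IKZF1 cannot be told apart. The labels number the replicates without saying that they came from separate cultures; p-values therefore rest on library-to-library spread alone, possibly only technical spread.

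The proteasome is the barrel-shaped protease that degrades proteins tagged with ubiquitin. Its core particle is built from outer alpha rings, which gate the entry, and inner beta rings, which hold the proteolytic sites. A regulatory particle, made of a base with a ring of ATPases and a lid, binds the tagged protein, removes the ubiquitin, unfolds the protein and feeds it into the core, while the PSME proteins form alternative caps. The catalytic beta subunits are the targets of the proteasome inhibitors used in lymphoid cancers.

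Library totals were 16342979 to 22733932 reads assigned to genes; treated WT replicate 1 was the deepest and no other library passed 16913784. The values are FPKM, reads per gene divided by gene length and library size, and carry a scaling between libraries made by the authors. Treated KO replicate 3 stood apart: the chi-square per degree of freedom between replicate pairs was 6.43 and 7.95 in its pairs and 2.24 to 4.26 in the other 10. It held the highest value of its group in 29 of 35 tested members, beside 26 for untreated KO replicate 3 and 22 for treated WT replicate 3. By plain read totals these counts were 20, 23 and 17. The counts of members, and the members given by library, are therefore also given without it. Of 10 B cell precursor markers, 9 reached 1 FPKM in some library. The summed level of the 10 was 622 to 633.5 FPKM in treated KO, 880.4 to 884.4 in untreated KO, 411.2 to 441.2 in treated WT and 613.1 to 635.4 in untreated WT libraries. DNTT reached 1 FPKM in untreated WT libraries only (1.38 to 2.52), with 0.50 to 0.83 in treated WT and at most 0.061 in KO libraries. The summed level of the 7 T and NK cell markers was 11.49 to 13.56 FPKM in treated KO and 11.81 to 12.58 in untreated KO libraries. It was 20.24 to 22.51 in treated WT and 16.95 to 18.23 in untreated WT libraries. Of these markers 1 of 7, NKG7, reached 1 FPKM, with CD3D, CD3G, CD2 and KLRD1 at 0. Of the myeloid markers 3 of 7 did, with sums of 3.154 to 4.575 FPKM in treated KO, 1.65 to 2.183 in untreated KO, 7.468 to 9.05 in treated WT and 4.002 to 5.335 in untreated WT libraries, and of the erythroid markers 0 of 4 did. CD33, a myeloid marker, reached 1 FPKM in WT libraries only. IKZF1 itself averaged 14.5 FPKM in treated KO and 14.79 FPKM in treated WT cells, and 21.11 FPKM in untreated KO and 22.38 FPKM in untreated WT cells, differences that did not pass limma's test (adjusted p = 0.618 and 0.122). Its RNA level therefore does not check the genotype label.

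Stretches of 4 promoters are shown because the results below turn on these genes and because they carry the motif matches counted here: PSMC3, the 1 member that was higher with AraC; PSMA5, among the members that fell most; PSMB3, a beta ring gene with both motifs; and PSME1, the member with the greatest KO to WT difference. Each runs 5′ to 3′ on the gene's strand from 200 to 41 bases before the RefSeq start (GRCh38.p14). Capitals mark matches, on either strand, to CCAAT, the box bound by NF-Y, or to TGACNNNGC, the core of the antioxidant response element read by the NFE2 family, where N is any base.
PSMC3, chr11:47426480-47426639, minus strand: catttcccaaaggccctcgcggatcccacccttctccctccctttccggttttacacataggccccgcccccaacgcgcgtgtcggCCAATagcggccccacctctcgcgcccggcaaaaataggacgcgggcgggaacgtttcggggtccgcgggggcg
PSMA5, chr1:109426489-109426648, minus strand: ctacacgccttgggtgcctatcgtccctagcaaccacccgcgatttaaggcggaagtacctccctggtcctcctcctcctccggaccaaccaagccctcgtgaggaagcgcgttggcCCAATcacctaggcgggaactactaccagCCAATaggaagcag
PSMB3, chr17:38752541-38752700, plus strand: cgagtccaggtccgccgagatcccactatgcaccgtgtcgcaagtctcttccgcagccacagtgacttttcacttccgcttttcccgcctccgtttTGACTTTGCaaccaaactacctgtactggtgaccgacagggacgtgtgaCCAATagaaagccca
PSME1, chr14:24135994-24136153, plus strand: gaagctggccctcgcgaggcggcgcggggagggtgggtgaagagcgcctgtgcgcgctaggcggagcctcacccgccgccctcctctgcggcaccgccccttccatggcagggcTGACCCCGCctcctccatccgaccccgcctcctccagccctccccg

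RefSeq promoters of 300 bases (250 before and 50 after the start) were matched for 35 of the 40 members; none was used here for PSMA7, PSMB1, PSMB6, PSMB7 and PSMD4. TGACNNNGC, searched on both strands, was found in 10 of the 35 (28.6%), against 13.6% of all 27305 promoters of the same length. CCAAT was found in 17 (48.6%), against 35.7% of all promoters. GGGCGG, the box bound by SP1, was found in 23 (65.7%), against 44.6%, and the E-box CACGTG in 3 (8.57%), against 7.44%. All promoters were not limited to genes tested here. Some RefSeq starts lie downstream of another annotated start of the same gene. In PSME2, which has a TGACNNNGC match, all 160 bases from 200 to 41 before the start lie in its own annotated exons. The shares are descriptions of letters; genes with a TGACNNNGC match had a median log2 change with AraC of -0.27 in KO and -0.29 in WT cells (9 tested genes), against -0.19 in KO and -0.23 in WT cells for the 21 tested genes without one. With a CCAAT match the medians were -0.26 in both genotypes (15 genes), against -0.21 in KO and -0.27 in WT cells for the 15 without one.

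The tested members ranged from 8.84 to 149.2 FPKM. Of the 40, 35 had at least 1 FPKM in at least 3 libraries and were tested; the other 5 are given by their range only. PSMA7, an alpha ring subunit, had the highest mean over the 12 libraries at 149.2 FPKM (range 133.0 to 165.3), followed by the activator PSME1 at 136.3 FPKM (98.4 to 165.3), the beta ring subunit PSMB3 at 94.8 FPKM (76.6 to 115.5) and the ATPase PSMC3 at 78.5 FPKM (69.1 to 93.3). The ranges of PSMA7 and PSME1 overlapped, and so did those of PSMB3 and PSMC3. The lowest tested members were the base chaperone PSMD5 at 8.84 FPKM and the lid subunit PSMD6 at 10.96 FPKM. Beta ring genes lay close together, with a 2.72-fold span between PSMB2 at 34.9 FPKM and PSMB3. The ATPases spanned 6.36-fold between PSMC6 at 12.3 FPKM and PSMC3, the lid genes 4.495-fold between PSMD6 and PSMD7, and the alpha ring genes 12.75-fold between PSMA1 at 11.7 FPKM and PSMA7. The subunits of a ring are present in equal numbers in the assembled particle. FPKM here divides by all annotated exon bases of a gene, so these spans also depend on annotated length. PSMC6, with 7482 exon bases, held 1343 to 1976 reads per library, and the ATPase PSMC4, with 2387, held 1125 to 1731. The spans are therefore not a measure of transcript numbers alone.

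**Figure D1:**
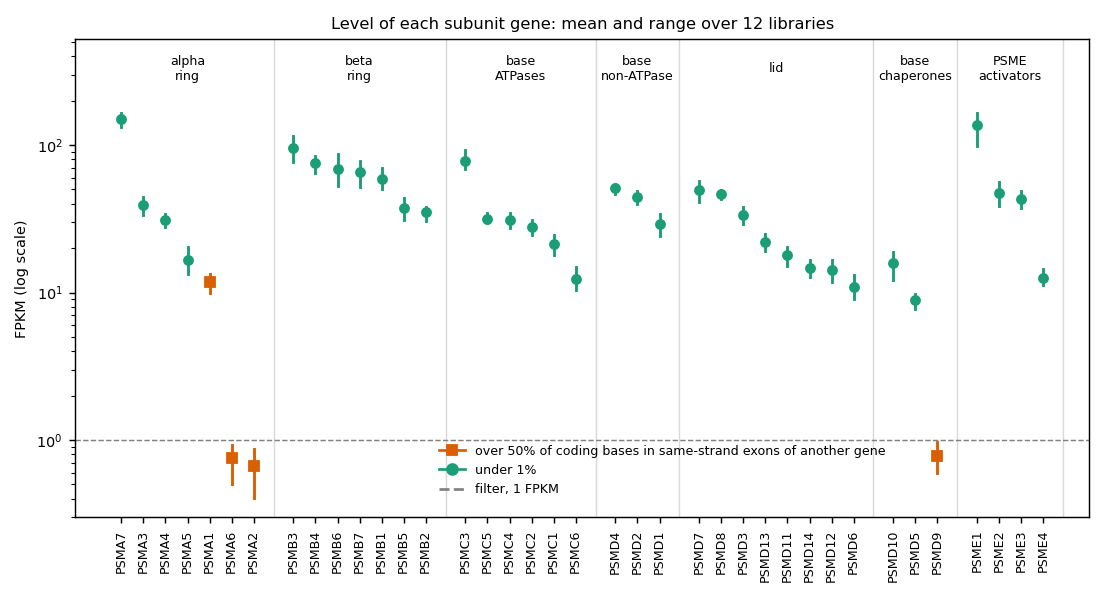
Mean FPKM (points, log scale) and range over the 12 libraries (lines) of the 38 members listed above 0, grouped by their place in the proteasome. PSMA2, PSMA6 and PSMD9 lie under 1 FPKM, the filter drawn as a dashed line; squares mark genes with over 50% of their coding bases in exons of another gene on the same strand.

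The 5 members under the filter were PSMA2, PSMA6, PSMD9, PSMA8 and PSMB11. PSMA8, the alpha subunit of the testis form, and PSMB11, the beta subunit of the thymus form, had 0 reads in all 12 libraries. PSMA2 was at 0.62 to 0.75 FPKM in treated KO, 0.52 to 0.87 FPKM in untreated KO, 0.40 to 0.55 FPKM in treated WT and 0.72 to 0.82 FPKM in untreated WT libraries. PSMA6 ranged over 0.50 to 0.92 FPKM and PSMD9 over 0.60 to 0.97 FPKM in all 12 libraries. PSMA2 and PSMA6 encode obligate alpha ring subunits, and both stood far below their ring partners. In GENCODE release 29, whose gene positions equal those of the table for all 58735 identifiers, 97.1% of the coding bases of PSMA2, 88.6% of PSMA1, 70.4% of PSMA6 and 58.7% of PSMD9 also lie in exons of another gene on the same strand. These 4 genes share them with AC010132.3, AC018523.2, AL121594.1 and AC069503.2, which held 0 to 4 reads per library. PSMD9 also shares 4.97% of its exon bases with WDR66 on the same strand, which held 41 to 168 reads per library. In the other 36 members the share was 0.125% (PSME2) or 0. How reads that fall in several genes were counted is not stated in the labels, and its part in these low levels was not tested. PSMC1 and PSMD7 overlap genes on the opposite strand over 75.8% and 30.7% of their exon bases. PSMC5 overlaps FTSJ3 on the opposite strand over 19.5% of its exon bases. FTSJ3 held 1422 to 2429 reads per library, beside 2037 to 3404 for PSMC5. The labels do not state whether counting used strand, so reads of such partners may not be told apart.

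With AraC, most members were lower in both genotypes under the scaling of the deposited values. In KO cells 28 of the 35 tested members were lower with AraC and 1 was higher, where 24.7% of all 13300 tested genes were lower and 19.8% higher. In WT cells 27 were lower and 1 was higher, where 25.6% of all tested genes were lower and 24.1% higher. A call is an adjusted p under 0.05 in limma on log2(FPKM + 0.5), adjusted by Benjamini-Hochberg over all tested genes. The median log2 change of the 35 was -0.25 in KO and -0.27 in WT cells, against -0.03 and -0.01 for all genes. Of the 4887 genes with a mean of at least 10 FPKM, the range that holds all but PSMD5 of the tested members (a limit chosen after seeing the data), 43.7% were lower and 15.8% higher in KO, and 45.6% were lower and 18.0% higher in WT cells, with median log2 changes of -0.11 and -0.12. In bulk RNA, fewer cells of a type and less RNA per cell cannot be told apart.

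The members lower in both genotypes numbered 26. PSMA4 was lower in WT alone (-0.16 in WT; -0.14 in KO, adjusted p = 0.0507 by limma), and PSMC4 and PSMD5 in KO alone; no difference between the genotypes passed the test for these 3. PSMA1, PSMC2, PSMC5, PSMD4 and PSMD8 did not pass in either genotype, with log2 changes of -0.10 to 0.03 in KO and -0.14 to 0.09 in WT cells. Both comparisons use separate control libraries, untreated KO and untreated WT.

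The counts depend on how libraries are scaled, since the authors' factors differed between treated and untreated libraries. With plain read totals 18 members were lower and 2 higher in KO, and 17 lower and 4 higher in WT cells. With TPM, which fixes the sum of each library, the counts were 16 lower and 2 higher in KO, and 14 lower and 5 higher in WT cells. With quantile normalization they were 20 lower and 1 higher in KO, and 18 lower and 6 higher in WT cells. Among all tested genes, TPM gave 1755 lower and 4056 higher in KO and 1656 lower and 5537 higher in WT cells, and quantile normalization 2720 lower and 2709 higher in KO and 3055 lower and 3314 higher in WT cells. Plain totals moved the median of all genes to 0.09 in KO and 0.13 in WT, with 3991 higher and 1901 lower genes in KO and 5131 higher and 1952 lower in WT. Relative to that median the members' median was -0.22 in KO and -0.24 in WT cells, beside -0.23 and -0.26 with the deposited scaling and -0.21 and -0.24 with TPM. With quantile normalization it was smaller, -0.12 in KO and -0.10 in WT cells. Lower under all 4 scalings were 16 members in KO and 12 in WT cells, 10 of them shared: PSMA5, PSMB1, PSMB3, PSMB6, PSMB7, PSMD1, PSMD3, PSMD6, PSME2 and PSME3. PSMC3 was higher under all 4 in both. The sign of the change differed between scalings for 7 members in KO and 9 in WT cells. Without treated KO replicate 3, 29 members were lower in KO cells and the median was -0.29. In that fit PSMA5 changed by -0.46, PSMB6 by -0.55, PSMB7 by -0.46, PSMC6 by -0.20, PSMD3 by -0.34, PSMD6 by -0.38, PSME2 by -0.35, PSME3 by -0.33 and PSME4 by -0.28 in KO cells, and all 9 passed the test.

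**Figure D2:**
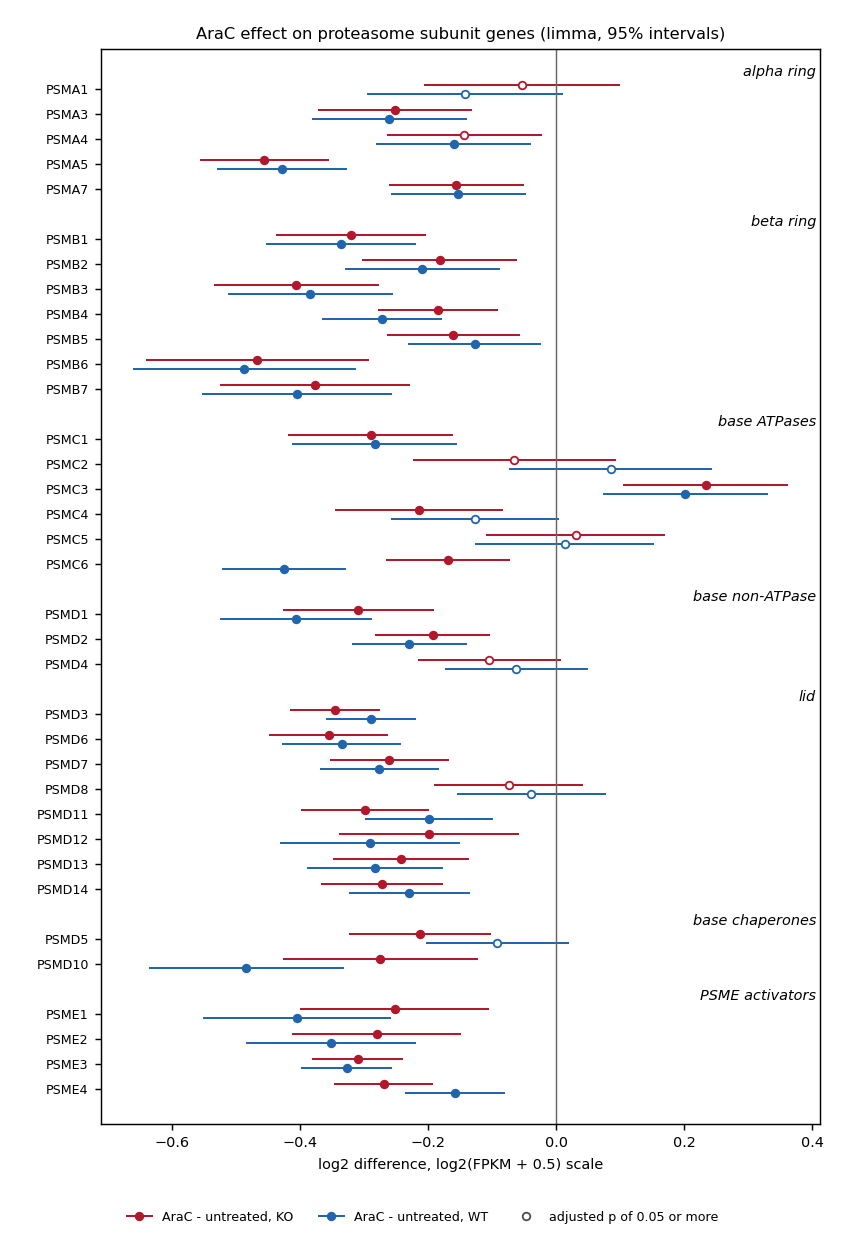
Log2 difference between AraC-treated and untreated cells on the log2(FPKM + 0.5) scale for the 35 tested members, with 95% intervals, in KO (red, upper) and WT (blue, lower). Filled points passed limma's test at an adjusted p under 0.05; PSMC3 is the 1 filled point to the right of 0 in each genotype, and all 7 tested beta ring genes are filled to its left.

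In the alpha ring, PSMA5 fell the most. PSMA5 (chr1:109399031-109426427) had 15.3, 13.4 and 14.4 FPKM in treated KO, against 19.26, 20.01 and 20.22 FPKM in untreated KO libraries. In treated WT libraries it had 13.9, 13.4 and 13.5 FPKM, against 18.8, 18.1 and 18.6 FPKM in untreated WT. Every treated library lay below every untreated one in both genotypes. The log2 change was -0.46 in KO (95% interval -0.56 to -0.36, limma adjusted p = 1.57e-05) and -0.43 in WT (-0.53 to -0.33, adjusted p = 1.87e-05). PSMA3 and PSMA7 were also lower in both genotypes, with changes of -0.25 and -0.16 in KO and -0.26 and -0.15 in WT, but the WT call of PSMA3 and both calls of PSMA7 were lost under each of the 3 other scalings. PSMA3 in WT was at -0.11 with plain read totals and with quantile normalization and at -0.069 with TPM. PSMA7 turned to 0.07 in KO cells with quantile normalization, and was above 0 in WT cells under all 3, called higher at 0.21 with quantile normalization. Summed over the alpha genes, FPKM under the deposited scaling changed by -12.2% in KO and -12.4% in WT cells. The FPKM sum of all genes also fell. It was 254115 to 276509 in treated KO, against 285057 to 290297 in untreated KO libraries. In treated WT libraries it was 246886 to 252226, against 283822 to 286070 in untreated WT. The summed changes given here and below are not corrected for this fall.

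In the beta ring, all 7 tested genes were lower with AraC in both genotypes under the deposited scaling. Their summed level was 386.8, 368.2 and 416.1 FPKM in treated KO, against 472.6, 489.7 and 503.9 FPKM in untreated KO libraries. It was 370.7, 376.0 and 397.8 FPKM in treated WT, against 494.6, 479.1 and 476.0 FPKM in untreated WT libraries. Under the deposited scaling the groups did not overlap in either genotype, and the sum changed by -20.1% in KO and -21.05% in WT cells. The catalytic genes differed in how much they moved.

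PSMB6 (chr17:4796144-4798503) encodes the caspase-like site. It had 58.18, 52.99 and 66.16 FPKM in treated KO, against 74.9, 86.7 and 83.6 FPKM in untreated KO libraries. It had 54.35, 53.65 and 58.85 FPKM in treated WT, against 81.9, 76.4 and 76.2 FPKM in untreated WT libraries. The groups did not overlap, and the log2 change was -0.47 in KO (-0.64 to -0.29, limma adjusted p = 0.000612) and -0.49 in WT (-0.66 to -0.31, adjusted p = 0.000376).

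PSMB7 (chr9:124353466-124415444) encodes the trypsin-like site. It had 54.59, 52.98 and 63.92 FPKM in treated KO, against 73.4, 71.4 and 77.6 FPKM in untreated KO libraries. It had 51.96, 57.30 and 57.49 FPKM in treated WT, against 74.03, 74.98 and 72.00 FPKM in untreated WT libraries. Again no treated library reached an untreated one, with log2 changes of -0.38 in KO (-0.52 to -0.23, limma adjusted p = 0.000887) and -0.40 in WT (-0.55 to -0.26, adjusted p = 0.000446).

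PSMB5 (chr14:23016543-23035230) encodes the chymotrypsin-like site, which the clinical inhibitor bortezomib binds. It had 33.7, 32.65 and 31.05 FPKM in treated KO, against 36.2, 35.4 and 37.4 FPKM in untreated KO libraries. It had 37.2, 37.7 and 40.5 FPKM in treated WT, against 40.0, 43.5 and 42.8 FPKM in untreated WT libraries. The KO groups stood apart and the WT groups overlapped. The log2 change was -0.16 in KO (-0.26 to -0.06, limma adjusted p = 0.0155) and -0.13 in WT (-0.23 to -0.03, adjusted p = 0.0405). In WT cells the sign turned under the other 3 scalings, to 0.064 with TPM, and no KO or WT change passed under them. By limma the KO call was also lost without treated KO replicate 3 (-0.13, adjusted p = 0.0525) or untreated KO replicate 3 (-0.14, adjusted p = 0.0597), and the WT call without any 1 of untreated WT replicates 2 and 3 and treated WT replicates 1 and 2 (adjusted p = 0.111 to 0.133) or treated KO replicate 2 (adjusted p = 0.0504). Among the structural beta genes, PSMB3 changed by -0.41 in KO and -0.38 in WT cells and PSMB1 by -0.32 and -0.34. PSMB2 and PSMB4 changed by -0.18 and -0.19 in KO and -0.21 and -0.27 in WT cells. Neither PSMB2 nor PSMB4 stayed lower under all 4 scalings in either genotype, and PSMB4 turned to 0.02 in KO under quantile normalization.

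The ATPases of the base did not move together. Their summed level was 193.3, 189.6 and 221.9 FPKM in treated KO, against 191.9, 200.2 and 207.1 FPKM in untreated KO libraries. It was 205.2, 201.9 and 212.1 FPKM in treated WT, against 207.0, 200.4 and 205.3 FPKM in untreated WT libraries. Under the deposited scaling the groups overlapped in both genotypes. Plain read totals multiply a library's FPKM by 1.05 to 1.07 in treated WT and 0.95 to 0.96 in untreated WT libraries. The factors were 0.99 to 1.05 in treated KO and 0.93 to 0.95 in untreated KO libraries. So scaled, the treated sums lay above the untreated ones in both genotypes. With the deposited scaling, PSMC1, PSMC4 and PSMC6 of the 6 genes were lower and PSMC3 higher in KO cells. PSMC1 and PSMC6 were lower and PSMC3 higher in WT cells. Lower under all 4 scalings were PSMC1 in KO cells alone, PSMC6 in WT cells alone and PSMC4 in neither.

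PSMC3 (chr11:47418769-47426473), whose product reaches with its tail into pockets of the alpha ring, had 79.7, 79.6 and 93.3 FPKM in treated KO, against 69.1, 71.3 and 73.8 FPKM in untreated KO libraries. It had 84.7, 82.5 and 87.1 FPKM in treated WT, against 75.9, 71.1 and 73.9 FPKM in untreated WT libraries. Treated libraries lay above untreated ones throughout. The log2 change was 0.23 in KO (0.11 to 0.36, limma adjusted p = 0.00679) and 0.20 in WT (0.07 to 0.33, adjusted p = 0.0131). Without treated KO replicate 3, the highest library, the KO change was 0.16 (adjusted p = 0.008353 by limma); without untreated WT replicate 2 the WT change was 0.18 and missed the threshold (adjusted p = 0.05052).

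PSMC6 (chr14:52707172-52728587) went the other way. It had 11.4, 10.5 and 11.7 FPKM in treated KO, against 12.97, 12.52 and 12.43 FPKM in untreated KO libraries. It had 10.84, 10.65 and 10.99 FPKM in treated WT, against 14.61, 15.00 and 14.52 FPKM in untreated WT libraries. Groups did not overlap, with log2 changes of -0.17 in KO (-0.26 to -0.07, limma adjusted p = 0.00811) and -0.43 in WT (-0.52 to -0.33, adjusted p = 1.43e-05). PSMC2 and PSMC5 changed by -0.07 and 0.03 in KO and by 0.09 and 0.01 in WT cells, none past the threshold. With TPM and plain read totals the KO call of PSMC6 was lost (-0.041 and -0.051) and PSMC5 was called higher in each genotype. PSMC2, PSMC5 and PSMD8 were called higher in WT cells under all 3 other scalings.

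Ratios within a library do not change with a factor that scales the whole library, as the deposited scaling, TPM and plain read totals do; quantile normalization can change them and was not applied here. The beta ring sum over the ATPase sum was 2.00, 1.94 and 1.88 in treated KO, against 2.46, 2.45 and 2.43 in untreated KO libraries. It was 1.81, 1.86 and 1.88 in treated WT, against 2.39, 2.39 and 2.32 in untreated WT libraries. The ratio changed by -20.75% in KO and -21.9% in WT cells with no overlap, and the two-sided exact permutation p was 0.1 in each, the smallest that 3 against 3 allows. For 7 ratios and 1 sum in 4 comparisons 32 such tests were run, and the smallest Benjamini-Hochberg adjusted p was 0.188. PSMC3 over the sum of the other 5 ATPases averaged 0.717 ± 0.013 in treated KO and 0.556 ± 0.0054 in untreated KO cells, and 0.697 ± 0.0065 in treated WT and 0.564 ± 0.014 in untreated WT cells (SD, n = 3 each; exact permutation p = 0.1). Treated libraries lay above untreated ones in both genotypes. PSMC3 was called higher and PSMC1 and PSMC6 lower in these same libraries, so this ratio is not a separate test. PSMC3 is also part of the ATPase sum in the beta ring ratio. Without PSMC3 the ATPase sum, which does depend on the scaling, changed by -8.545% in KO, where groups overlapped, and by -6.85% in WT, where they did not.

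**Figure D3:**
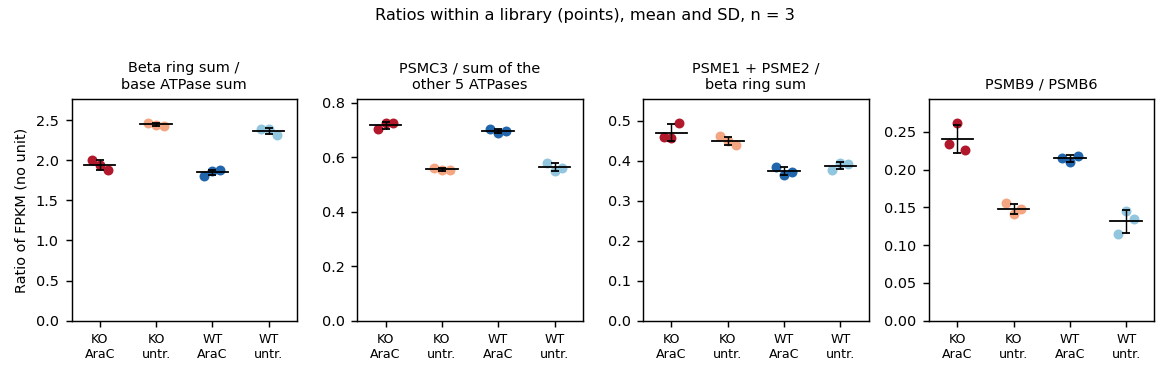
Ratios of FPKM within each library (points), with the mean (line) and SD (bar) of 3 libraries per group, from treated KO at the left to untreated WT at the right. The beta ring to ATPase ratio is lower and the PSMC3 and PSMB9 ratios are higher in every treated library than in any untreated library of the same genotype; the PSME1 and PSME2 ratio is higher in every KO than in any WT library.

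In the rest of the base, PSMD1 and PSMD2, large scaffold subunits, were lower with AraC: PSMD1 by -0.31 in KO and -0.41 in WT cells on the log2 scale, and PSMD2 by -0.19 in KO and -0.23 in WT cells. PSMD1 stayed lower under all 4 scalings in both genotypes, and PSMD2 in neither. PSMD4, a ubiquitin receptor, changed by -0.10 in KO and -0.06 in WT cells and passed in neither.

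In the lid, 7 of 8 genes were lower in each genotype under the deposited scaling. Under all 4 scalings PSMD3 and PSMD6 stayed lower in both genotypes, and PSMD7, PSMD11 and PSMD14 in KO cells alone. PSMD12 and PSMD13 did so in neither. PSMD3 (chr17:39980797-39997960), a scaffold subunit of the lid, had 29.52, 28.92 and 29.0035 FPKM in treated KO, against 37.05, 36.56 and 37.95 FPKM in untreated KO libraries. It had 29.6, 30.7 and 30.4 FPKM in treated WT, against 37.7, 37.7 and 35.9 FPKM in untreated WT libraries. The groups lay well apart, with log2 changes of -0.35 in KO (-0.42 to -0.28, limma adjusted p = 8.05e-06, the lowest of the members there) and -0.29 in WT (-0.36 to -0.22, adjusted p = 2.18e-05).

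PSMD6 (chr3:64010549-64024010), another lid subunit, had 10.3, 9.36 and 10.3 FPKM in treated KO, against 13.2, 12.8 and 12.8 FPKM in untreated KO libraries. It had 9.08, 9.14 and 9.32 FPKM in treated WT, against 11.75, 11.56 and 11.83 FPKM in untreated WT libraries. No groups overlapped, with log2 changes of -0.36 in KO (-0.45 to -0.26, limma adjusted p = 4.84e-05) and -0.34 in WT (-0.43 to -0.24, adjusted p = 6.06e-05). PSMD7, PSMD11, PSMD12, PSMD13 and PSMD14, the last of which encodes the deubiquitinase of the lid, changed by -0.20 to -0.30 in KO and -0.20 to -0.29 in WT cells. PSMD8 changed by -0.07 in KO and -0.04 in WT cells and did not pass. Of the base chaperones, PSMD10 changed by -0.27 in KO and -0.48 in WT cells, and PSMD5 by -0.21 in KO (adjusted p = 0.00491 by limma) and -0.09 in WT cells (adjusted p = 0.149). PSMD10 stayed lower under all 4 scalings in WT cells alone, and PSMD5 in neither genotype.

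Under the deposited scaling all 4 activator genes were lower with AraC in both genotypes, and their sum changed by -16.9% in KO and -22.5% in WT cells. PSME3 (chr17:42824385-42843758), whose product caps nuclear core particles, had 39.3, 37.9 and 40.3 FPKM in treated KO, against 47.8, 49.1 and 49.1 FPKM in untreated KO libraries. It had 37.54, 37.85 and 37.95 FPKM in treated WT, against 48.0, 48.4 and 46.3 FPKM in untreated WT libraries. Each treated group was narrow and lay below its untreated group, with log2 changes of -0.31 in KO (-0.38 to -0.24, limma adjusted p = 1.79e-05) and -0.33 in WT (-0.40 to -0.26, adjusted p = 9.58e-06).

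PSME4 (chr2:53864067-53970840), a large single-chain activator of the nucleus, had 11.43, 11.49 and 11.75 FPKM in treated KO, against 13.9, 13.8 and 14.5 FPKM in untreated KO libraries. It had 11.7, 11.2 and 11.6 FPKM in treated WT, against 12.99, 13.06 and 12.64 FPKM in untreated WT libraries. The treated KO and WT groups overlapped, and the untreated groups did not. The log2 change was -0.27 in KO (-0.35 to -0.19, limma adjusted p = 9.31e-05) and -0.16 in WT (-0.23 to -0.08, adjusted p = 0.00285), where it turned to 0.028 with TPM and missed the threshold with plain read totals (-0.0083).

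PSME1 (chr14:24136158-24138967) and PSME2 (chr14:24143362-24147570) encode the chains of the interferon-inducible cap and are neighbours on chromosome 14. PSME1 had 135.7, 124.9 and 155.4 FPKM in treated KO, against 164.4, 164.3 and 165.3 FPKM in untreated KO libraries. It had 104.4, 98.4 and 109.0 FPKM in treated WT, against 140.3, 137.0 and 135.9 FPKM in untreated WT libraries. Treated libraries lay below untreated ones, with log2 changes of -0.25 in KO (-0.40 to -0.11, limma adjusted p = 0.00931) and -0.41 in WT (-0.55 to -0.26, adjusted p = 0.000412). In WT cells the call was lost under quantile normalization (-0.090, adjusted p = 0.0849 by limma). Without treated KO replicate 3 the KO change was -0.34. Under quantile normalization the KO change was 0.0079, and it missed the threshold with TPM (-0.12, limma adjusted p = 0.0523) and plain read totals (-0.13, adjusted p = 0.0621).

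PSME2 had 42.4, 43.71 and 50.25 FPKM in treated KO, against 53.55, 55.46 and 56.55 FPKM in untreated KO libraries. It had 38.5, 38.9 and 38.7 FPKM in treated WT, against 46.6, 51.8 and 50.3 FPKM in untreated WT libraries. The groups did not overlap, and the log2 change was -0.28 in KO (-0.41 to -0.15, limma adjusted p = 0.00267) and -0.35 in WT (-0.48 to -0.22, adjusted p = 0.000515).

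**Figure D4:**
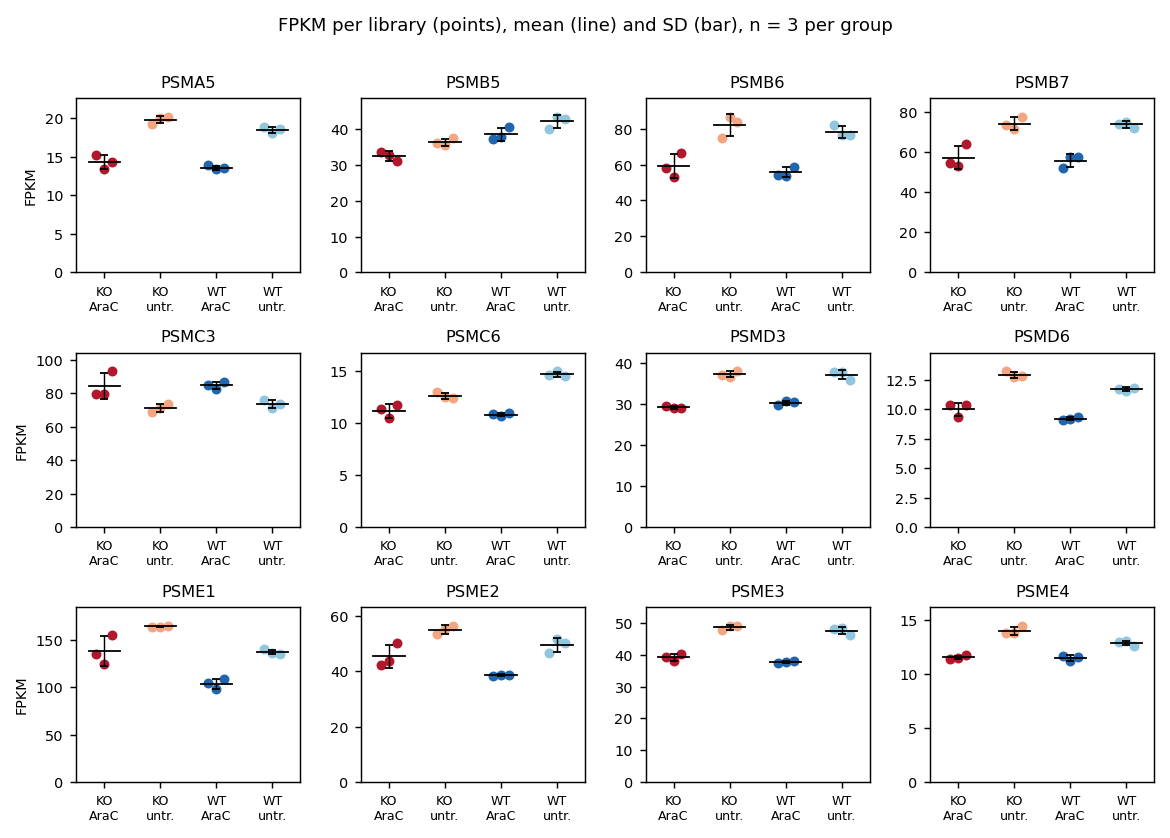
FPKM of the 12 members given by library (points), with the mean (line) and SD (bar) of 3 libraries per group, on linear axes from 0. PSMC3 is higher in treated than untreated cells of both genotypes, and PSME1 is higher and PSMB5 lower in KO than in WT cells at either treatment.

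Under the deposited scaling, KO and WT cells differed in few members. With AraC, 2 members were higher and 1 lower in KO, where 15.4% of all tested genes were higher and 14.8% lower. Without AraC, 3 members were higher and 2 lower in KO, where 14.9% of all genes were higher and 12.6% lower. The median difference was 0.01 with AraC and -0.00 without, beside 0.00 and 0.01 for all genes. With AraC the counts were 2 higher and 9 lower with plain read totals, 2 and 11 with TPM, and 4 and 9 with quantile normalization. All tested genes split into 1567 higher and 2761 lower, 1353 and 3036, and 2031 and 2217 under the same scalings. Without AraC the members' counts were 2 and 3, 3 and 3, and 3 and 4, where all genes split into 1798 and 1958, 1787 and 1859, and 1912 and 1802. Leaving out treated KO replicate 3 gave 2 higher and 4 lower with AraC; leaving out treated KO replicate 2 gave 5 higher, and treated WT replicate 2 gave 2 lower. Without AraC, leaving out untreated WT replicate 1 or 3 or untreated KO replicate 3 gave 1 higher, and leaving out untreated WT replicate 2 or untreated KO replicate 1 or 2 gave 2 higher.

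PSME1 was higher in KO cells at both treatments under all 4 scalings. From the levels above, every KO library lay above every WT library of the same treatment. The log2 difference was 0.41 with AraC (0.26 to 0.56, limma adjusted p = 0.000805) and 0.26 without (0.11 to 0.40, adjusted p = 0.0137). Without treated KO replicate 3 it was 0.32 with AraC. PSME2 differed by 0.22 with AraC (0.09 to 0.36, adjusted p = 0.0145 by limma) and by 0.15 without (0.02 to 0.28, adjusted p = 0.0796), with no overlap between the groups at either treatment. Without treated KO replicate 3 the PSME2 difference with AraC was 0.15 (adjusted p = 0.02897 by limma). The sum of the pair over the beta ring sum was 0.461, 0.458 and 0.494 in treated KO, against 0.386, 0.365 and 0.371 in treated WT libraries. It was 0.461, 0.449 and 0.440 in untreated KO, against 0.378, 0.394 and 0.391 in untreated WT libraries. KO libraries stood above WT libraries at both treatments, by 25.9% and 16.1% of the WT ratio (exact permutation p = 0.1 each).

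PSMB5 was lower in KO cells at both treatments under all 4 scalings. The log2 difference was -0.24 with AraC (-0.34 to -0.14, limma adjusted p = 0.00245) and -0.21 without (-0.31 to -0.11, adjusted p = 0.00614), and the KO and WT libraries did not overlap. Without treated KO replicate 3 the difference with AraC was -0.21. The other catalytic genes, PSMB6 and PSMB7, differed by 0.08 and 0.04 with AraC and by 0.06 and 0.01 without, and the groups overlapped. PSMC6 was lower in KO cells without AraC by -0.21 (-0.31 to -0.12, adjusted p = 0.00379 by limma) and differed by 0.04 with AraC. PSMD6 and PSME4 were higher in KO cells without AraC, by 0.14 and 0.12 (limma adjusted p = 0.0296 and 0.0261), and differed by 0.12 and 0.01 with AraC. The PSMD6 call without AraC was lost when any 1 of its 6 libraries was left out, and the PSME4 call when untreated WT replicate 1 or 3 or untreated KO replicate 3 was, or with TPM, plain read totals or limma-voom.

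**Figure D5:**
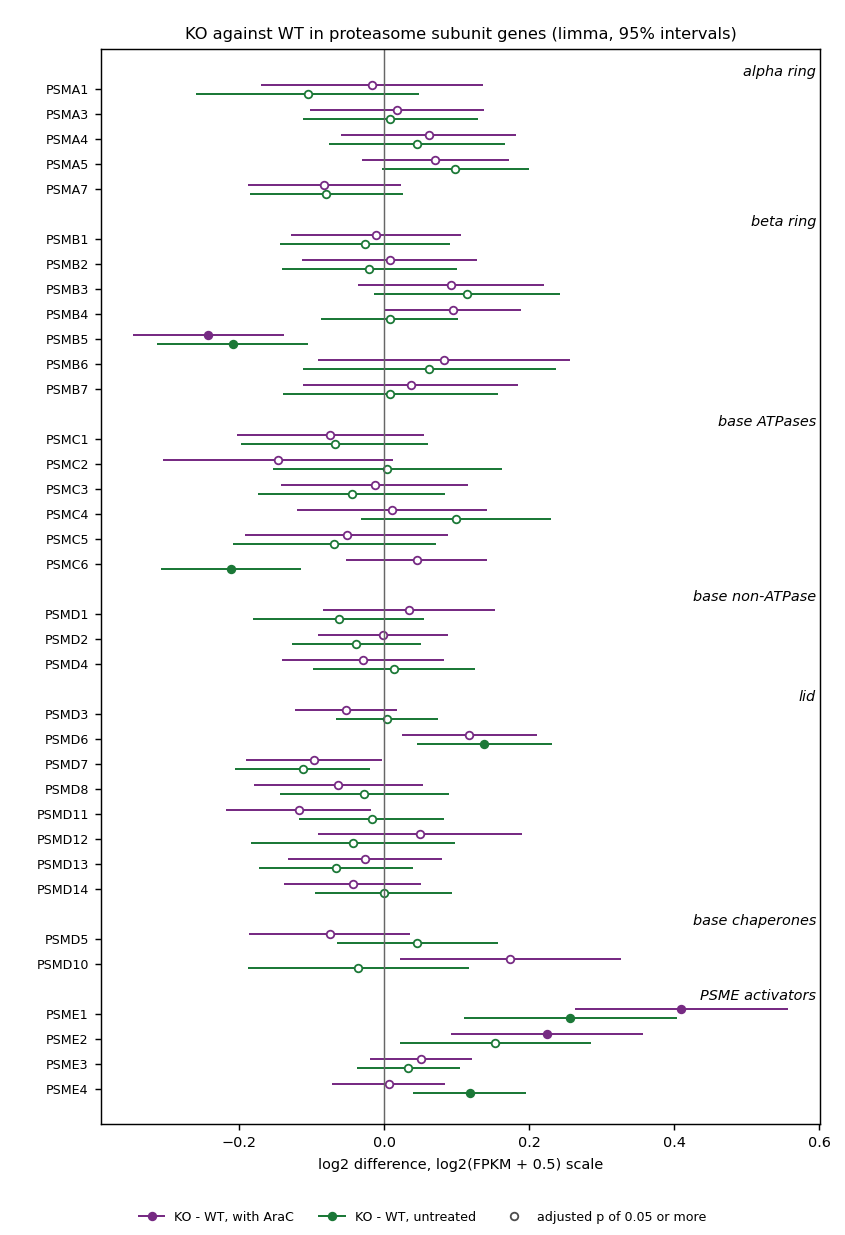
Log2 difference between KO and WT cells on the log2(FPKM + 0.5) scale for the 35 tested members, with 95% intervals, with AraC (purple, upper) and untreated (green, lower). Filled points passed limma's test at an adjusted p under 0.05: PSME1 and PSMB5 at both treatments, PSME2 with AraC, and PSMC6, PSMD6 and PSME4 untreated.

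The AraC effect in KO cells minus that in WT cells passed the test for 0 members in either direction, where 0.887% of all tested genes were higher and 1.8% lower in limma. At an unadjusted p under 0.05 there were 2, PSMC6 and PSME4, and limma-voom on the recovered reads called 1, PSMC6. The difference of effects was 0.26 for PSMC6 (0.12 to 0.39, adjusted p = 0.054) and -0.11 for PSME4 (-0.22 to -0.00, adjusted p = 0.26). Over 24 alternatives the limma adjusted p of PSMC6 ran from 0.0188 (limma-voom) to 0.127 (without treated WT replicate 2) and was under 0.05 in 7, among them the fit without treated KO replicate 2 (0.0253). Without treated KO replicate 3 the PSMC6 difference was 0.2215 and missed the threshold (limma adjusted p = 0.08175).

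The interferon-inducible beta subunits, which replace the catalytic ones in the immunoproteasome, moved apart from each other with AraC. PSMB9, the replacement of PSMB6, had 13.65, 13.86 and 14.94 FPKM in treated KO, against 11.6, 12.3 and 12.3 FPKM in untreated KO libraries. It had 11.7, 11.3 and 12.9 FPKM in treated WT, against 9.41, 11.1 and 10.3 FPKM in untreated WT libraries. The log2 change was 0.22 in KO and 0.21 in WT cells (limma adjusted p = 0.0178 and 0.0174). PSMB8 and PSMB10, the replacements of PSMB5 and PSMB7, were lower, by -0.25 and -0.28 in KO and -0.29 and -0.45 in WT cells. PSMB9 over PSMB6 averaged 0.241 ± 0.019 in treated KO and 0.148 ± 0.0068 in untreated KO cells, and 0.215 ± 0.0044 in treated WT and 0.132 ± 0.015 in untreated WT cells (SD, n = 3 each; exact permutation p = 0.1). The treated ratios lay above the untreated ones in both genotypes. Since PSMB9 was called higher and PSMB6 lower in these same libraries, this ratio is not a separate test. Between genotypes, PSMB9 was higher in KO at both treatments (0.23 each) and PSMB10 with AraC (0.38, adjusted p = 0.00319 by limma); PSMB10 over PSMB7 was 0.375, 0.401 and 0.377 in treated KO, against 0.286, 0.320 and 0.296 in treated WT libraries.

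Of 11 further subunits and assembly factors, 6 were lower and 2 higher with AraC in each genotype. Counts for this list and for the lists below hold for the deposited scaling only. Among all tested genes, 24.7% were lower and 19.8% higher with AraC in KO cells, and 25.6% lower and 24.1% higher in WT cells. Among genes with a mean of at least 10 FPKM, 43.7% were lower and 15.8% higher in KO, and 45.6% lower and 18.0% higher in WT cells. These shares stand beside the counts of the lists below as well. POMP, the maturation factor of the core, changed by -0.35 in KO and -0.34 in WT cells (limma adjusted p = 0.00136 and 0.00127), while PAAF1, which binds base ATPases, rose by 0.37 in KO and 0.31 in WT cells. Also lower were ADRM1, a ubiquitin receptor of the base (-0.29 in KO and -0.20 in WT), and the core chaperone PSMG2 (-0.21 in KO and -0.30 in WT), and TXNL1, a thioredoxin bound to the regulatory particle (-0.33 in KO and -0.31 in WT). None of the 11 differed between genotypes past the threshold at either treatment by limma, with 1 at an unadjusted p under 0.05 with AraC and 2 without.

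Among 14 genes of the NFE2L1 pathway, which raises subunit transcription when proteasome activity is short, 3 were higher and 6 lower with AraC in KO, and 2 higher and 5 lower in WT cells. NFE2L1 itself had 29.55, 33.42 and 34.36 FPKM in treated KO, against 22.1, 23.1 and 22.7 FPKM in untreated KO libraries. It had 29.4, 29.2 and 29.9 FPKM in treated WT, against 19.5, 21.5 and 18.8 FPKM in untreated WT libraries. NFE2L1 RNA thus rose, by 0.51 in KO and 0.55 in WT cells (limma adjusted p = 4.98e-05 and 2.09e-05), in the same libraries where most members were lower; its protein was not measured here. NFE2L2, its paralogue in the oxidative stress response, rose by 0.42 in KO and 0.51 in WT cells, and HCFC1, a transcriptional coregulator, fell by 0.43 and 0.47. SYVN1, the ubiquitin ligase of the endoplasmic reticulum, was higher in KO than in WT cells, by 0.39 with AraC and 0.38 without. MAFF, a small Maf partner, was higher in KO without AraC (0.59, adjusted p = 0.0126 by limma), and NFE2L1 as well (0.18, adjusted p = 0.0438). DDI2, the protease that activates NFE2L1, was lower in KO with AraC (-0.27).

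Of the ubiquitin and E1 genes described here, UBB, a polyubiquitin gene, changed with AraC by -0.29 in KO and -0.42 in WT cells (limma adjusted p = 0.00125 and 8.54e-05). The E1 enzyme UBA1, which starts the ubiquitin cascade, changed by -0.28 in KO and -0.30 in WT cells, and RPS27A, which encodes ubiquitin fused to a ribosomal protein, by -0.29 and -0.30. The other E1 enzyme, UBA6, changed by 0.05 in KO and -0.03 in WT cells and did not pass. These genes are not the whole list. Under quantile normalization UBB turned to 0.02 in both genotypes and RPS27A to 0.05 in WT cells. UBB was higher in KO than in WT cells with AraC, by 0.16 (adjusted p = 0.0413 by limma), although the libraries overlapped.

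Of 11 deubiquitinases and shuttle factors, 6 were lower with AraC in KO and 4 in WT cells, and 0 were higher. The shuttle factors RAD23B (-0.32 in KO and -0.41 in WT) and UBQLN1 (-0.24 and -0.29) were lower in both, UBQLN2 in WT (-0.23) and DDI2 in KO (-0.29). UBQLN2 was higher in KO than in WT cells with AraC (0.22), and UBQLN4 without (0.18). Of the 9 genes of p97, the segregase that hands substrates to the proteasome, and its cofactors, 2 were higher and 3 lower in KO, and 3 higher and 2 lower in WT cells. VCP, which encodes p97, changed by -0.22 in KO and -0.26 in WT, and the cofactors UFD1 and UBXN2A by 0.29 and 0.21 in KO and 0.16 and 0.22 in WT cells; FAF2 rose by 0.24 in WT cells and was higher in KO than in WT cells without AraC (0.22). In the COP9 signalosome, a complex built like the lid, 5 of 9 genes were lower with AraC in KO (55.6%) and 4 in WT cells (44.4%). Among all tested genes with a mean of at least 10 FPKM, 43.7% were lower in KO and 45.6% in WT cells. The lower COP9 genes included GPS1 (-0.32 in KO and -0.27 in WT), COPS7A (-0.29 and -0.47) and COPS7B (-0.18 and -0.21). Between genotypes COPS7A was lower in KO, by -0.26 with AraC and -0.44 without, COPS5, on chromosome 8, which the rule for members leaves out, was lower by -0.29 and -0.23, and COPS7B was higher by 0.23 and 0.20.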

How the data were processed

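The authors deposited 1 table of FPKM per gene for the 12 libraries, on GRCh38 positions. Per the submitters' processing notes, the tools were fastp, HISAT2 (2.0.5) and featureCounts (1.5.0-p3); their settings are not stated there. FPKM multiplied by gene length gave whole reads for 100% of values within 0.001 reads, and these gave the depths.

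The 13300 genes at 1 FPKM or more in 3 or more libraries entered one limma fit (3.58.1, R 4.3.3) of log2(FPKM + 0.5), with a mean per group and a variance trend. Tests were two-sided, adjusted by Benjamini-Hochberg over these genes; this scale understates the change of low genes. Intervals are 95%. The script was tested on simulated data.

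The members and gene lists were chosen with earlier results of these data known. Values in every library are given for up to 4 members per comparison and direction with the lowest adjusted p and for the 3 catalytic genes; of other lists, up to 3 genes per comparison. Genes named outside this rule were chosen after their values were seen. The 25 alternatives changed scaling, pseudocount, filter, model or left out a library. Some genes of the ubiquitin list are not reported here.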

Additional observations from a re-analysis of the deposited data

How the results depend on the processing

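The members' counts and medians, for 5 comparisons, were recomputed under 25 alternatives, 12 of which left out 1 library; 330 of the values kept within 1.5 times of the count or within the spread between libraries, and 42 did not. Scaling moved them most. With TPM the members higher and lower with AraC were 5 and 14 in WT (median -0.080) and 2 and 16 in KO (median -0.12), KO against WT with AraC gave 11 lower (median -0.070), and the median difference of AraC effects was -0.044. With plain read totals they were 4 and 17 in WT (median -0.12) and 2 and 18 in KO (median -0.13), and KO against WT with AraC gave 9 lower (median -0.046). With quantile normalization 6 were higher in WT (median -0.11), the KO median was -0.14, KO against WT gave 4 higher and 9 lower with AraC and 4 lower without. KO against WT with AraC had 4 higher with limma-voom, and 4 higher and 3 lower with sample weights. The difference of AraC effects was called for 1 member, PSMC6, with a filter at 5 FPKM, quantile normalization, plain read totals, limma-voom, sample weights and protein-coding genes only. The cause was not tested. Leaving out 1 library gave, for AraC in KO, 24 to 29 lower and a median of -0.29 to -0.20; for AraC in WT, 24 to 29 lower and 0 to 1 higher; for KO against WT, 2 to 5 higher and 1 to 4 lower with AraC and 1 to 4 higher without; and for the difference of AraC effects 0 to 1 higher and a median of -0.040 to 0.041.

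Of the named members, signs turned for PSMB5 with AraC in WT (0.064 with TPM, 0.029 with quantile normalization and 0.027 with plain read totals), for PSME4 there (0.028 with TPM) and for PSME1 with AraC in KO (0.0079 with quantile normalization). Of the other values, 34 lost and 21 gained a call and 1428 kept direction and call. Over all tested genes, same-numbered libraries showed little shared deviation: over 18 pairs between groups the correlation was -0.0498 to 0.115, with 1 pair over 0.1. The members were not checked apart from the other genes. Replicate 3 held the highest value of its group in 29 of 35 members in treated KO and 26 in untreated KO. In treated WT it did so in 22, and in untreated WT in 7. With a replicate block, 29 members were lower with AraC in KO and 26 in WT, 3 lower in KO against WT without AraC, and PSMB5 lost its call with AraC in WT. Alternatives with 2 libraries in a group borrow the spread of the others.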
